A study of Mus musculus with 12 samples.

Results

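The polyglutamine disease genes other than huntingtin, with their close relatives, were followed in the piriform cortex of the Q140 mouse. The 9 genes, Atxn1, Atxn1l, Atxn2, Atxn2l, Atxn3, Atxn7, Atn1, Tbp and Atxn10, were taken from the count table by exact match of the gene symbol, and each matched 1 row of the 48795 in the table. Read counts came from 12 mice of the C57BL/6 background, all aged 12 months. The 6 Q140 animals were heterozygous for a knock-in allele of Htt, so that 1 copy of the gene carried the Q140 allele in every cell, and the 6 wild type (WT) animals carried none. Each genotype had 3 males and 3 females, and each library was 1 animal, so the spread behind a p-value is that from animal to animal. The labels name the tissue dissected and 1 plate for all libraries.

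Polyglutamine diseases arise when a run of CAG codons inside a coding sequence lengthens, so that the protein carries a long tract of glutamines. Each disease has its own gene, and the proteins share little beyond the tract. ATXN1, ATXN2, ATXN3, ATXN7, TBP and ATN1 are the human disease genes for several spinocerebellar ataxias and for dentatorubral-pallidoluysian atrophy, and HTT is the gene of Huntington's disease. ATXN1L and ATXN2L are paralogs of ATXN1 and ATXN2, and ATXN10 causes an ataxia through an intronic pentanucleotide repeat that is not translated into glutamine.

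The mouse genes carry runs of glutamine codons of very different length. Shown here is the longest uninterrupted run of CAG and CAA codons in the main annotated transcript, with 5 codons on either side. The genes are 5 of the polyglutamine disease genes and Htt. The run was sought over the whole coding sequence. Its place was not compared with that of the human disease tract, so it need not be the repeat that expands in disease. The sequences are coding strand, 5′ to 3′, from GENCODE M21 on GRCm38, with the run in capitals.
Tbp: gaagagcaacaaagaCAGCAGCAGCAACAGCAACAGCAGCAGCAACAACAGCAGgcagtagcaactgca
Htt: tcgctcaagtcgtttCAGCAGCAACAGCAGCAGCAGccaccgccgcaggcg
Atxn3: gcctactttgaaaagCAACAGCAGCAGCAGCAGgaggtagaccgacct
Atxn7: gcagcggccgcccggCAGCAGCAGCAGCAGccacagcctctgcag
Atxn1: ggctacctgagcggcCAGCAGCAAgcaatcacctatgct
Atxn2: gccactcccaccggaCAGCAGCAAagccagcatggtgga

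Tbp had the longest run of these genes, with 13 glutamine codons, 9 of them CAG and 4 CAA, from codon 58 of 316 in exon 4 (chr17:15504391-15504429, + strand). Glutamine made up 11.1% of all Tbp codons. The unmodified Htt reference held 7 codons from codon 18 in exon 1 (chr5:34761958-34761978, + strand). Atxn3 held 6, from codon 292 of 355 in exon 10 (chr12:101926563-101926580, - strand), and Atxn7 held 5 CAG codons from codon 25 of 867 in exon 2 (chr14:14013156-14013170, + strand). The longest run was 3 codons in Atxn1 (chr13:45567080-45567088, - strand, codon 444 of 791) and in Atxn2 (chr5:121810946-121810954, + strand, codon 1129 of 1286). It was 2 codons in Atxn1l (gene at chr8:109726451-109737739, - strand) and in Atxn2l (chr7:126491708-126503437, - strand), and Atxn10 (chr15:85336245-85463212, + strand) had no 2 glutamine codons in a row. Among 21556 genes with a coding sequence, taking the longest of each, a run of at least 3 codons occurred in 8.94%, of at least 5 in 1.16%, of at least 6 in 0.858% and of at least 13 in 0.241%. Tbp was therefore among 52 genes in the last class. Of 155 tested genes with at least 6 codons, 2 rose and 13 fell in Q140 animals, which is 9.68%. Htt, the targeted gene, is among those that fell. Of the 14538 coding genes tested, 725 rose and 1047 fell, 12.2%. The expanded Htt allele itself could not be seen in gene counts.

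Total counts per animal ran from 19587208 to 35198602, and the 9 genes held from 434 reads (Atn1 in Q140 animal 6) to 7952 reads (Atxn2l in Q140 animal 1). No pair of libraries matched within sampling noise. Htt, the targeted gene, averaged 151 ± 8.19 CPM (counts scaled to the library total) in Q140 animals and 196 ± 8.15 CPM in WT animals (SD, n = 6 each), a log2 change of -0.37 (SE 0.0428, edgeR adjusted p = 0.000203), and the groups did not overlap. Of the neuronal and glial marker lists, 1 of 5 excitatory neuron markers (Slc17a7) fell, and 3 of 7 oligodendrocyte and 1 of 5 microglial markers rose. The summed excitatory markers ran from 1498 to 1883 CPM in Q140 animals and from 1955 to 2286 CPM in WT animals, without overlap, a sum that is mostly Slc17a7. The mean log2 CPM of the same 5 markers, centred over the animals, overlapped, from -0.29 to 0.062 in Q140 animals and from -0.45 to 0.62 in WT animals. The summed oligodendrocyte markers ran from 3903 to 5585 CPM in Q140 animals and from 3437 to 4863 CPM in WT animals, and no marker was at 0 in all animals. Summed meningeal markers spanned 37.4 to 108 CPM in Q140 animals and 11.5 to 109 CPM in WT animals, and summed markers of projection neurons of the nearby striatum spanned 425 to 750 CPM in Q140 animals and 247 to 1105 CPM in WT animals. In bulk tissue, fewer cells of a type and less RNA per cell cannot be told apart. The animal names carry prefixes of unstated meaning that are split unevenly between the genotypes: RFQ has 3 Q140 and 1 WT animals, RFckQ 1 Q140 and 4 WT animals, FMQ 1 WT animal, and 2 Q140 animals have none.

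Levels between genes were compared as FPKM, fragments scaled by gene length and by library total. Atxn10 stood highest, at 91.8 ± 4.26 FPKM in Q140 animals and 87.1 ± 2.80 FPKM in WT animals (SD, n = 6 each), above 97.7% of the genes tested. Atxn2l came second at 47.3 ± 2.86 FPKM in Q140 animals and 48.4 ± 3.74 FPKM in WT animals. Neither of these genes overlapped in range with any other member over the 12 animals. The next 5 genes formed a close series in which each overlapped in range with its neighbour. Atxn1 averaged 8.80 ± 0.618 FPKM in Q140 animals and 8.97 ± 0.640 FPKM in WT animals, and Atxn1l 8.32 ± 0.504 FPKM in Q140 animals and 8.12 ± 0.505 FPKM in WT animals. Atxn2 averaged 7.40 ± 0.316 FPKM in Q140 animals and 7.54 ± 0.250 FPKM in WT animals. Atxn3 and Atxn7 were the closest pair of neighbours, and Atxn3 was above Atxn7 in 5 of 12 animals. Atxn3 averaged 7.09 ± 0.279 FPKM in Q140 animals and 6.60 ± 0.247 FPKM in WT animals, and Atxn7 6.76 ± 0.380 FPKM in Q140 animals and 6.83 ± 0.389 FPKM in WT animals.

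Atn1 and Tbp were the lowest of the set and overlapped with no other member. Atn1 averaged 4.53 ± 0.490 FPKM in Q140 animals and 4.33 ± 0.285 FPKM in WT animals. Tbp averaged 2.55 ± 0.0894 FPKM in Q140 animals and 2.62 ± 0.190 FPKM in WT animals, above 37.4% of the genes tested. Both places rest on the gene model, as do others. Of the Atn1 exonic bases in GENCODE M21, 84.2% also belong to the gene model Gm45234 on the same strand, so the reads given to Atn1 depend on how the authors' counting treated shared bases. The Tbp model behind the FPKM is 13399 bases long, for a protein of 316 codons. Of its exonic bases 19.0% lie opposite exons of another gene, and Pdcd2 overlaps it on the other strand; in Atxn1 that holds for 375 of 13914 bases and in Atxn2 for 0.631%. The lengths behind the FPKM are 10605 bases for Atxn1, 6847 for Atxn7 and 2425 for Atxn10, where GENCODE M21 has 13914, 7978 and 1937 exonic bases. At the GENCODE lengths, a choice made after the values were seen, Atxn1 averaged 6.77 FPKM over the 12 animals and came sixth, below Atxn1l, Atxn2 and Atxn3. The strand setting of the counting is not given in the sources used here. Over the 12 animals, the order of the 9 genes was the same by median as by mean.

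**Figure D1:**
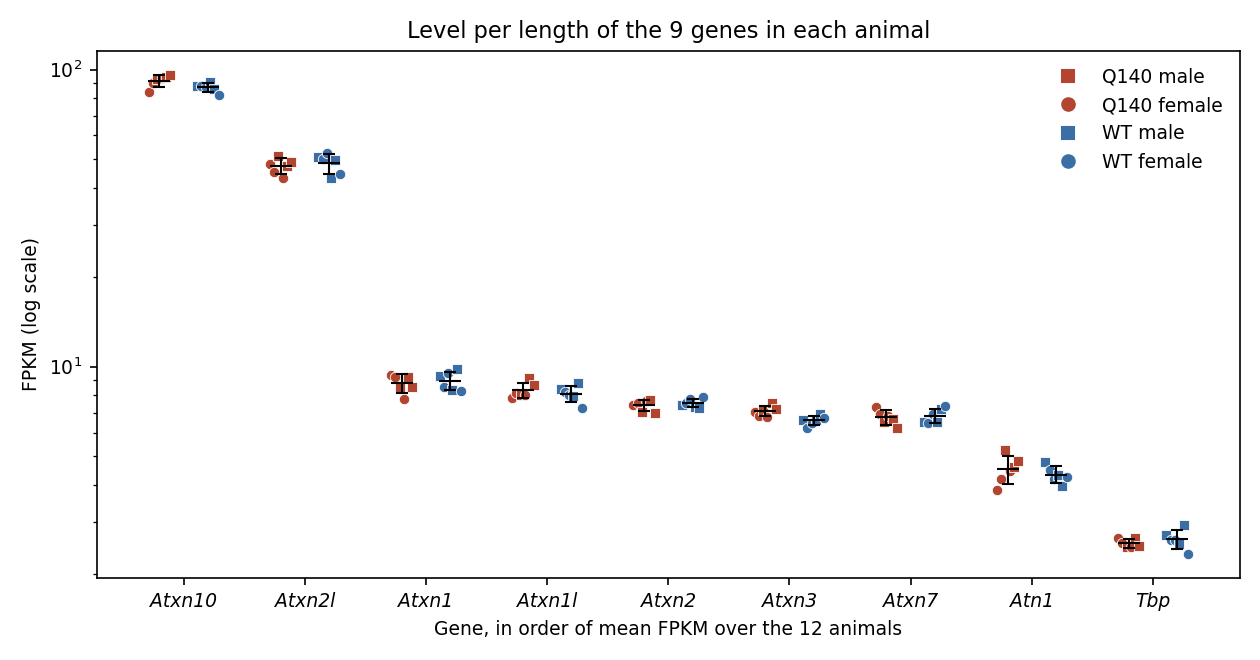
FPKM (log axis) of each of the 9 genes in each animal, with Q140 left of WT for each gene, squares for males and circles for females; black bars give the mean and SD of 6 animals. Atxn10 and Atxn2l stand above the rest, 5 genes from Atxn1 to Atxn7 overlap with their neighbours, and Atn1 and Tbp lie lowest.

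The fitted change between genotypes lay between -5.66% (Tbp) and 4.03% (Atxn3) in the 9 genes. By edgeR's quasi-likelihood test with sex as covariate and Benjamini-Hochberg adjustment over 17725 genes, 0 of 9 passed at 0.05, where 11.2% of all genes tested passed, 4.5% higher and 6.69% lower in Q140 animals. At an unadjusted p below 0.05 the count was also 0 by edgeR, with Atxn2 just above the limit, against 26.7% of all genes. It was 1 by DESeq2 (Atxn2, DESeq2 adjusted p = 0.158) and 2 by limma voom (Atxn2 and Atxn2l, limma adjusted p = 0.156 and 0.149), and after adjustment 0 of 9 passed by DESeq2 and by limma voom with quality weights as well. Of all 17725 genes tested, 2466 passed by DESeq2 and 2497 by voom. The shares of all genes at an unadjusted p below 0.05 by these tools are not given, here or for the comparisons by sex. The log2 changes ran from -0.084 in Tbp to 0.057 in Atxn3, with 6 below and 3 above 0 and a median of -0.063, against a median of 0.0045 over all genes tested. In all 9 genes the CPM of the genotypes overlapped, whereas 4.59% of the genes tested had no overlap. Taken gene by gene, the 95% intervals spanned from -12.8% to 10.7% at their widest, so each gene had a bounded difference, and a p above the threshold does not show that it was equal in both genotypes.

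The 9 genes had smaller standard errors than the median gene tested, and a spread among WT animals close to that of genes at 10 CPM or more. The standard error of the log2 change was between 0.0343 (Atxn2) and 0.0642 (Atn1), below the median of 0.0768 over all genes tested. That median includes genes with lower counts than any of the 9. The coefficient of variation among WT animals had a median of 6.28% over the 9 genes, against 6.10% over 10459 genes with a WT mean of at least 10 CPM.

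**Figure D2:**
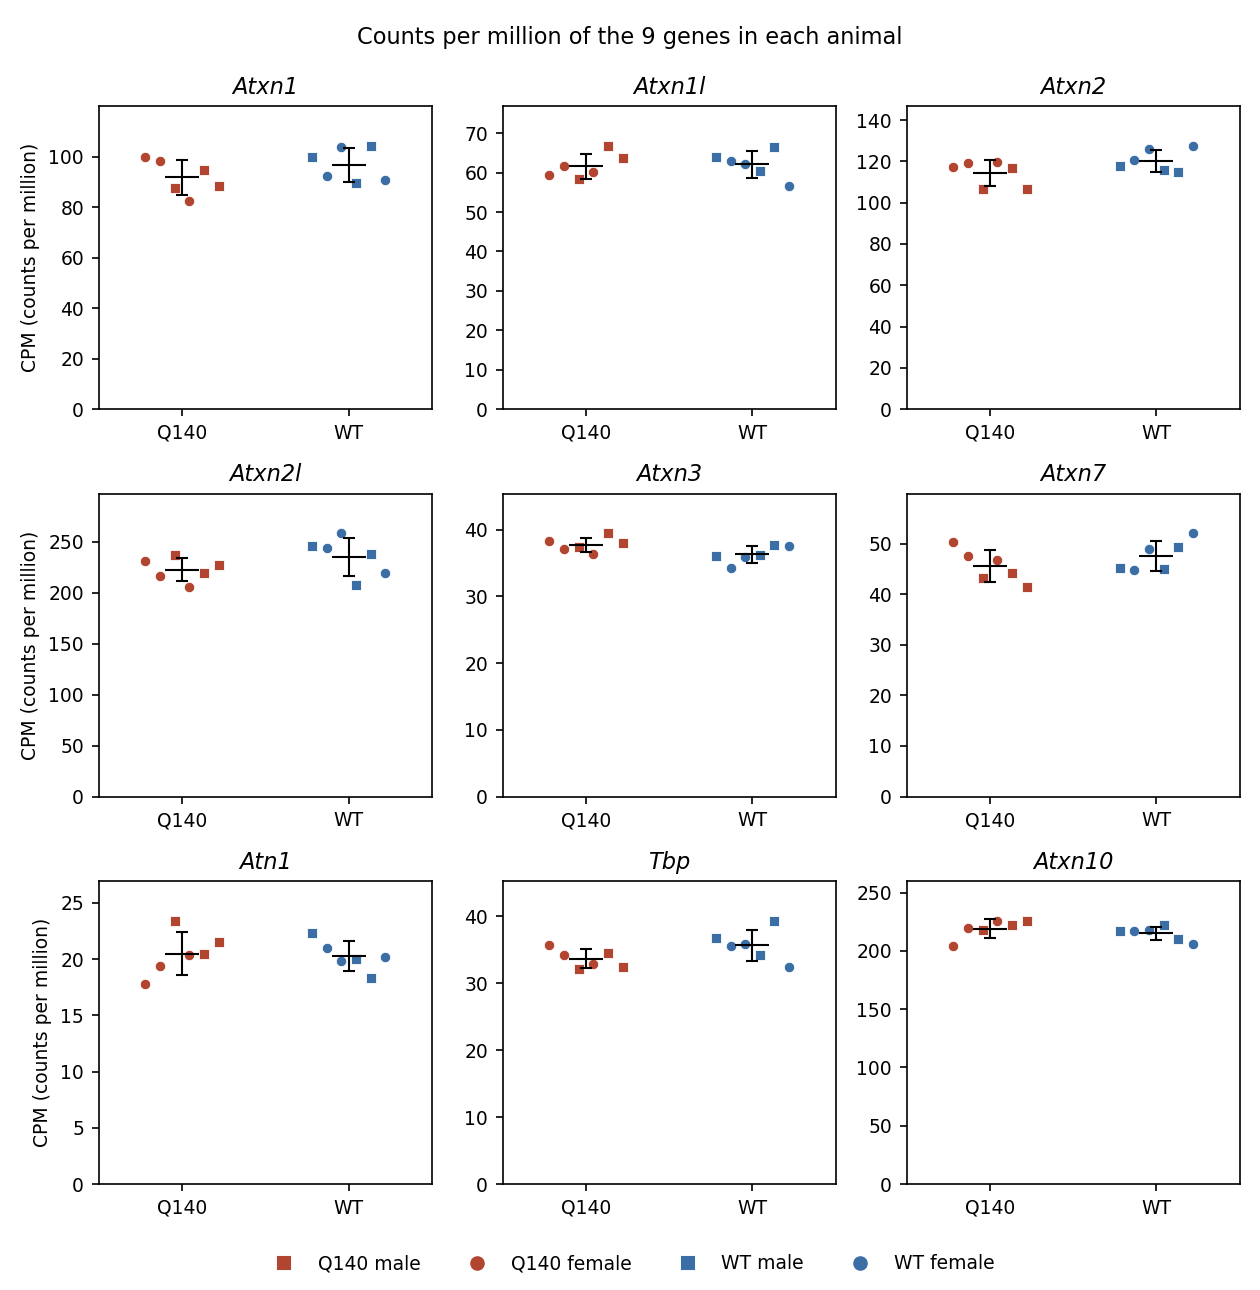
CPM of the 9 genes in each animal, 1 panel a gene with Q140 left of WT, squares for males and circles for females; black bars give the mean and SD of 6 animals, and each axis starts at 0. In every panel the clouds of the genotypes overlap.

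Atxn1 and Atxn1l encode nuclear proteins that bind the transcriptional repressor Capicua. Atxn1 had a lowest, median and highest value of 82.4, 91.7 and 99.99 CPM in Q140 animals, against 89.5, 96.2 and 104 CPM in WT animals. Its log2 change was -0.073 (SE 0.0579, edgeR adjusted p = 0.454), with an interval of -12.8% to 3.58%. The lowest Q140 animal was female 4 and 2 of the Q140 females exceeded the WT median, so the groups were interleaved. Atxn1l had 58.3, 60.9 and 66.8 CPM in Q140 animals, against 56.6, 62.5 and 66.6 CPM in WT animals. The Atxn1l change was close to 0, at -0.010 (SE 0.0429, edgeR adjusted p = 0.912), with an interval of -6.81% to 5.83%, and 5 of the 6 WT animals lay within the Q140 range.

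The ratio of a gene to its paralog within an animal does not depend on the scaling of the library. Atxn1 stood at 1.06 ± 0.0900 times Atxn1l in Q140 animals and 1.11 ± 0.0540 times in WT animals on the FPKM scale (SD, n = 6 each), from 0.970 to 1.20 in Q140 animals and from 1.04 to 1.18 in WT animals. The log2 ratio differed by -0.064 between the genotypes (exact two-sided permutation test, p = 0.284, adjusted over the 2 ratios p = 0.567; the smallest p the design allows is 0.00216). Atxn2 stood at 0.157 ± 0.0153 times Atxn2l in Q140 animals and 0.157 ± 0.0135 times in WT animals. That log2 ratio differed by 0.0032 (exact permutation test, p = 0.970, adjusted p = 0.970), which was less than the spread between animals. The level of Atxn1 against Atxn1l depends on the gene lengths given above: at the GENCODE lengths it was 0.808 in Q140 animals and 0.843 in WT animals, with the genotype difference on the log2 scale unaffected.

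**Figure D3:**
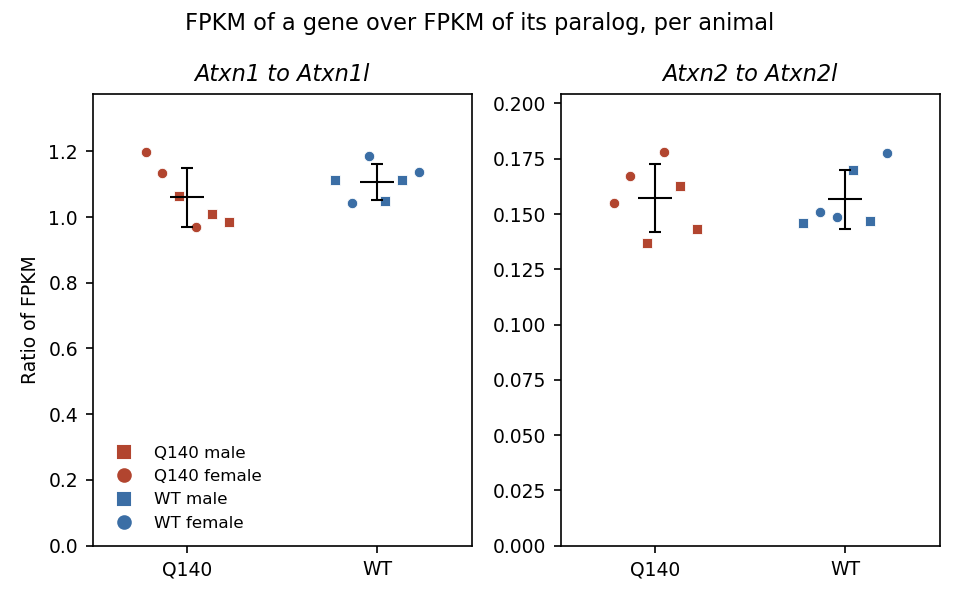
Ratio of FPKM of Atxn1 to Atxn1l (left) and of Atxn2 to Atxn2l (right) in each animal, Q140 left of WT, squares for males and circles for females; black bars give the mean and SD of 6 animals. At the lengths behind the FPKM Atxn1 is close to Atxn1l in level, Atxn2 is near 0.157 of Atxn2l, and the genotypes overlap in both panels.

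Atxn2 encodes a cytoplasmic RNA-binding protein that binds the poly(A)-binding protein, and Atxn2l a paralog found in stress granules. Atxn2 had a lowest, median and highest value of 107, 117 and 120 CPM in Q140 animals, against 115, 119 and 128 CPM in WT animals. Of the 9 genes it came nearest to the threshold, with a log2 change of -0.073 (SE 0.0343, unadjusted p = 0.0501, edgeR adjusted p = 0.188) and an interval of -9.69% to 0.00235%. The lowest values were those of Q140 males 3 and 6, at 107 CPM each, while the other 4 Q140 animals lay within the WT range. Atxn2 shares chromosome 5 with Htt, 86.8 Mb away. Atxn2l had 205, 223 and 237 CPM in Q140 animals, against 208, 241 and 258 CPM in WT animals. Its log2 change was -0.080 (SE 0.0548, edgeR adjusted p = 0.379), with an interval of -12.8% to 2.62%, and 4 WT animals lay above all Q140 animals.

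Atxn3 encodes a deubiquitinase that works with the segregase VCP in protein degradation. It had a lowest, median and highest value of 36.4, 37.7 and 39.5 CPM in Q140 animals, against 34.2, 36.1 and 37.7 CPM in WT animals. Its change was the highest of the 9, at 0.057 on the log2 scale (SE 0.0372, edgeR adjusted p = 0.355), with an interval of -1.56% to 9.94%, with 3 Q140 animals within the WT range and 3 above it. On log2(FPKM + 0.1) limma gave Atxn3 an unadjusted p of 0.0170 and an adjusted p of 0.0856, on a scale where the median of all genes tested was itself shifted up by 0.0499. On that scale limma also put Atxn10 below 0.05 before adjustment (unadjusted p = 0.0495, limma adjusted p = 0.165). Of all 17725 genes tested, 2321 passed in that fit.

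Atxn7 encodes a subunit of the deubiquitinating module of the SAGA coactivator. It had a lowest, median and highest value of 41.4, 45.5 and 50.3 CPM in Q140 animals, against 44.9, 47.1 and 52.0 CPM in WT animals. The log2 change was -0.063 (SE 0.0460, edgeR adjusted p = 0.416), with an interval of -10.6% to 2.53%. The 3 lowest of the Q140 animals were the males, and they lay below all WT animals.

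Tbp encodes the TATA-binding protein, which all nuclear RNA polymerases use to start transcription. It had a lowest, median and highest value of 32.1, 33.6 and 35.7 CPM in Q140 animals, against 32.4, 35.7 and 39.3 CPM in WT animals. The log2 change, -0.084 (SE 0.0494, edgeR adjusted p = 0.301), was the lowest of the 9, with an interval of -12.3% to 1.52%. All Q140 animals lay below the WT median, though WT female 6, at 32.4 CPM, was below 4 of them.

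Atn1 encodes atrophin-1, a nuclear corepressor. It had a lowest, median and highest value of 17.7, 20.4 and 23.4 CPM in Q140 animals, against 18.3, 20.1 and 22.3 CPM in WT animals. The log2 change was 0.0094 (SE 0.0642, edgeR adjusted p = 0.948), with an interval of -8.49% to 10.7%, and both the lowest and the highest of the 12 animals were Q140. Atxn10, whose protein has armadillo repeats and a role in neurite growth, had 204, 221 and 226 CPM in Q140 animals, against 206, 217 and 222 CPM in WT animals. Its log2 change was 0.028 (SE 0.0356, edgeR adjusted p = 0.662), with an interval of -3.30% to 7.50%. The lowest Q140 value was that of female 1, and the other 5 Q140 animals lay between 218 and 226 CPM.

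**Figure D4:**
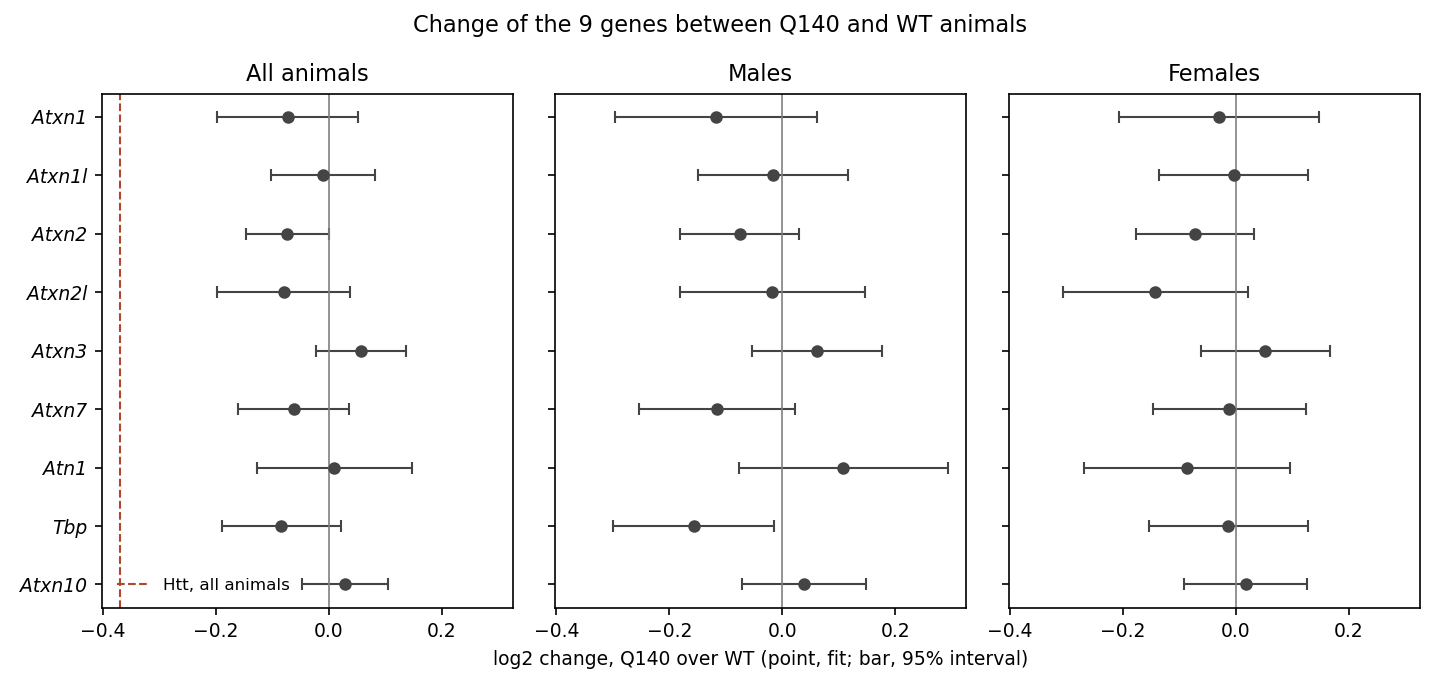
Log2 change of the 9 genes, Q140 over WT, in all animals, in males and in females; points are the edgeR fit and bars the 95% interval, and the dashed line marks Htt at -0.37. The intervals include 0 in all 9 genes over all animals and exclude Htt's value, and in males the interval of Tbp lies below 0 before adjustment over genes.

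The same values were taken within the prefixes of the animal names. Within RFQ (3 Q140 against 1 WT animals) and within RFckQ (1 Q140 against 4 WT animals), the log2 CPM difference had 1 sign in both for Atxn3, Atxn7, Atn1, Tbp and Atxn10. Some were close to 0, such as Atxn10 at 0.00013 within RFQ and Atn1 at 0.0058 within RFckQ. How often all genes had 1 sign in both is not given. These differences were not adjusted for sex. All RFQ animals are male, and the RFckQ Q140 animal is a female set against WT animals of both sexes. Atxn1 differed by 0.012 within RFQ and -0.28 within RFckQ, and Atxn2l by 0.13 within RFQ and -0.26 within RFckQ. With prefix as a covariate beside sex, which draws the genotype effect only from those 2 prefixes, 0 of 9 passed, with log2 changes from -0.11 in Atxn1 to 0.069 in Atxn3, and the calls over all genes were 134.

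The genotypes were also compared within each sex, in a fit with 4 groups, 1 for each sex of each genotype. In males, 0 of 9 passed, where 1.4% of all genes tested passed, and Tbp was the 1 member at an unadjusted p below 0.05 by edgeR, a limit that 16.6% of all genes met. Tbp had 32.1, 34.5 and 32.4 CPM in the Q140 males, against 36.7, 34.3 and 39.3 CPM in the WT males, a log2 change of -0.16 (SE 0.0661, unadjusted p = 0.0338, edgeR adjusted p = 0.255). All but 1 of these Q140 males lay below all WT males. Atxn7 had 43.2, 44.2 and 41.4 CPM in the Q140 males, against 45.2, 45.0 and 49.4 CPM in the WT males, and its log2 change of -0.12 did not pass (SE 0.0637, edgeR adjusted p = 0.396). Its values did not overlap between these males, and the share of all genes for which that holds in males is not given. DESeq2 and limma voom with quality weights also passed 0 of 9 in males, where 688 and 854 of all 17725 genes tested passed. Below an unadjusted p of 0.05 were Tbp by DESeq2 (DESeq2 adjusted p = 0.304) and Tbp, Atxn7 and Atxn2 by voom (limma adjusted p = 0.103, 0.198 and 0.216).

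In females, 0 of 9 passed and 0 had an unadjusted p below 0.05 by edgeR, where 7.05% of all genes tested passed and 23.7% had such a p. The fitted difference was largest in Atxn2l, with 231, 217 and 205 CPM in the Q140 females, against 243, 258 and 219 CPM in the WT females. Its log2 change was -0.14 (SE 0.0757, edgeR adjusted p = 0.278), and the groups overlapped only through WT female 6 at 219 CPM. Atxn3 was the highest in females, at 0.053 (SE 0.0527, edgeR adjusted p = 0.584). DESeq2 and voom passed 0 of 9 here too, and Atxn2l was below an unadjusted p of 0.05 by voom (limma adjusted p = 0.0825). Of all 17725 genes tested, 1826 passed by DESeq2 and 2716 by voom in females.

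The genotype effect in males was then compared with that in females, and 0 of 9 passed. The percentage of all genes tested that passed this test was 0, with 9.21% (1633 genes) at an unadjusted p below 0.05 by edgeR, 25 genes passing by DESeq2 and 1 by voom, and none of the 9 was below an unadjusted p of 0.05 by edgeR. The largest difference was in Atn1, whose genotype effect was higher by 0.19 on the log2 scale in males than in females (SE 0.1202, edgeR adjusted p = 0.636). Atn1 had 23.4, 20.4 and 21.6 CPM in the Q140 males, against 22.3, 20.0 and 18.3 CPM in the WT males, and 17.7, 19.3 and 20.4 CPM in the Q140 females, against 21.0, 19.8 and 20.2 CPM in the WT females. Tbp differed the other way, by -0.14 (SE 0.0929, edgeR adjusted p = 0.653).

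Males against females, with genotype as covariate, also gave 0 of 9, where 0.654% of all genes tested passed. Atxn2 had the smallest p of the set, with a log2 difference of -0.11 (SE 0.0343, unadjusted p = 0.00803, edgeR adjusted p = 0.205). Its means were 110 ± 5.98 CPM in Q140 males and 119 ± 1.32 CPM in Q140 females, and 116 ± 1.57 CPM in WT males and 125 ± 3.58 CPM in WT females (SD, n = 3 each). Atxn7 had a log2 difference of -0.11 (SE 0.0460, unadjusted p = 0.0265, edgeR adjusted p = 0.301), with 42.9 ± 1.41 CPM in Q140 males and 48.2 ± 1.87 CPM in Q140 females, and 46.5 ± 2.49 CPM in WT males and 48.6 ± 3.60 CPM in WT females. These were the 2 members at an unadjusted p below 0.05 by edgeR, where 13.5% of all genes were. The same 2 were below it by DESeq2 (DESeq2 adjusted p = 0.10004 for Atxn2 and 0.306 for Atxn7) and Atxn2 by voom (limma adjusted p = 0.216), and both tools passed 0 of 9 after adjustment. Of all 17725 genes tested, 350 passed by DESeq2 and 91 by voom in this comparison.

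The 9 genes varied in different directions between animals. Over the 36 pairs and 12 animals, Pearson's r of log2 CPM ran from -0.77 (Atxn7 with Atxn10) to 0.82 (Atxn1 with Tbp). After removal of the means of genotype and sex, those values were -0.75 and 0.80. The highest value after removal was 0.83, for Atxn3 with Atxn7, which had r = 0.058 before it. Atxn2 and Atxn7, named for the sex comparison above, had r = 0.73, and 0.37 after removal. All points share the library and its scaling, so these are descriptions. The tested gene outside the set whose pattern was most like that of the member was Ktn1 for Atxn1 (r = 0.91), Larp4 for Atxn1l (r = 0.90), Stim2 for Atxn2 (r = 0.96) and 1500017E21Rik for Atxn2l (r = 0.94). For Atxn3 it was E430025E21Rik (r = 0.93), for Atxn7 Acvr1 (r = 0.92), for Atn1 Bmyc (r = 0.89) and for Atxn10 Uap1l1 (r = 0.92), each over 12 animals and each the highest of all genes tested. None of these 8 genes passed the genotype test, the smallest edgeR adjusted p among them being 0.169 (Acvr1). Each was chosen for its likeness to a member that did not pass, so this is not a separate result.

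The genes around the members were taken from 8 lists of partners, complexes and related disease genes, with 142 genes listed and 138 tested, of which 30 passed. Among partners of ATXN1 and targets of Capicua, 1 of 17 tested rose and 4 fell, 29.4% in all, with a median log2 change of -0.10. The share over all genes tested was 11.2%, with 4.5% higher and 6.69% lower in Q140 animals. Etv1, a transcription factor gene repressed by Capicua, was at 35.1 ± 4.38 CPM in Q140 animals and 26.5 ± 1.31 CPM in WT animals (SD, n = 6 each), up by 0.40 (SE 0.0643, edgeR adjusted p = 0.00179). Etv4 and Etv5, of the same list, did not pass (log2 change -0.11 and 0.0052, edgeR adjusted p = 0.358 and 0.980). Dusp6 and Dusp4, phosphatase genes of the same list that limit ERK signalling, went opposite to Etv1 and fell by 0.38 and 0.29 (edgeR adjusted p = 0.00773 and 0.0293). Cic itself, which encodes Capicua, was at 245 ± 9.07 CPM in Q140 animals and 275 ± 17.01 CPM in WT animals, a log2 change of -0.17 (SE 0.0446, edgeR adjusted p = 0.0281). Members of the list thus passed in both directions. The number of this list that passed was 5 over all animals, 3 without Q140 animal 1, 3 or 6 or WT animal 2 or 5, and 2 without Q140 animal 2 or WT animal 1 or 3. It was 0 with name prefix and 0 with the oligodendrocyte marker mean as a covariate. Cic passed in 13 and Dusp4 in 14 of the 27 alternatives to the genotype fit, and Etv1 and Dusp6 in 24 each.

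Of 16 tested ATXN2 partners and stress granule genes, 1 rose and 1 fell, 12.5%. G3bp1, a stress granule scaffold, rose by 0.11 (SE 0.0326, edgeR adjusted p = 0.0401), and Rbfox1, a neuronal splicing factor gene, fell by 0.21 (SE 0.0593, edgeR adjusted p = 0.0367). Of 16 tested ATXN3 pathway genes, 2 rose and 0 fell, 12.5%. Faf1, a VCP cofactor gene, rose by 0.16 (SE 0.0467, edgeR adjusted p = 0.0380), with 32.9 ± 2.04 CPM in Q140 animals and 29.4 ± 1.73 CPM in WT animals. Of 24 tested SAGA genes, 1 rose and 1 fell, 8.33%. Kat2b, an acetyltransferase gene of the complex, rose by 0.30 (SE 0.0724, edgeR adjusted p = 0.0165), and Trrap, a large scaffold gene of it, fell by 0.17 (SE 0.0391, edgeR adjusted p = 0.0150). Of the 27 alternatives, G3bp1 passed in 10, Rbfox1 in 12, Faf1 in 10, Kat2b in 22 and Trrap in 21.

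Tbp's partners in TFIID and other complexes had 3 of 25 tested genes that rose and 1 that fell, 16%. Taf3, Taf13 and Gtf2a1, encoding subunits of TFIID and of TFIIA, rose by 0.24, 0.25 and 0.13 (edgeR adjusted p = 0.0192, 0.0218 and 0.0323). Btaf1, whose product removes TBP from DNA, was at 61.8 ± 15.2 CPM in Q140 animals and 81.3 ± 5.97 CPM in WT animals, a log2 change of -0.42 (SE 0.0942, edgeR adjusted p = 0.0121). Of 10 atrophin partners, 1 rose (Hdac1, a histone deacetylase gene, 0.27, edgeR adjusted p = 0.00445) and 1 fell (Baiap2, a synaptic scaffold gene, -0.27, edgeR adjusted p = 0.00252). Of the 4 ATXN10 partners none passed by edgeR, DESeq2 or voom, none was below an unadjusted p of 0.05, and the smallest p was that of Cep290 (log2 change -0.11, edgeR adjusted p = 0.362). Of the 27 alternatives, Gtf2a1 passed in 13, Taf13 in 20, Taf3 in 22, Btaf1 in 23, and Hdac1 and Baiap2 in 24 each. For these lists the shares stand beside the 11.2% of all genes tested.

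Genes of other inherited ataxias, most of them channel, synaptic and signalling genes, had the largest share of the 8 lists. Of 26 tested, 1 rose and 12 fell, 50.0%, with a median log2 change of -0.087. Over all genes tested 11.2% passed, with 4.5% higher and 6.69% lower in Q140 animals, and the median was 0.0045. Itpr1, the inositol trisphosphate receptor gene, was at 550 ± 35.4 CPM in Q140 animals and 665 ± 21.1 CPM in WT animals, without overlap, a log2 change of -0.27 (SE 0.0449, edgeR adjusted p = 0.00200). Fgf14, a regulator of sodium channels, fell by 0.27 (SE 0.0631, edgeR adjusted p = 0.0152). Cacna1a, a polyglutamine disease gene outside the 9 that encodes a calcium channel, is given with its values known: it was at 222 ± 11.2 CPM in Q140 animals and 252 ± 18.3 CPM in WT animals, a log2 change of -0.18 (SE 0.0521, edgeR adjusted p = 0.0369). Cacna1a passed in 12 of the 27 alternatives, Fgf14 in 23 and Itpr1 in 25. The summed excitatory neuron markers given above, though not the mean of their log2 values, were lower in the same Q140 animals without overlap, and their part in these falls was not tested. The number that fell was 0 with name prefix and 2 with the oligodendrocyte marker mean as a covariate, 5 without Q140 animal 1, 6 without Q140 animal 2 or 3, 7 without Q140 animal 4, 5 without WT animal 1, 7 without WT animal 2 and 4 without WT animal 3.

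**Figure D5:**
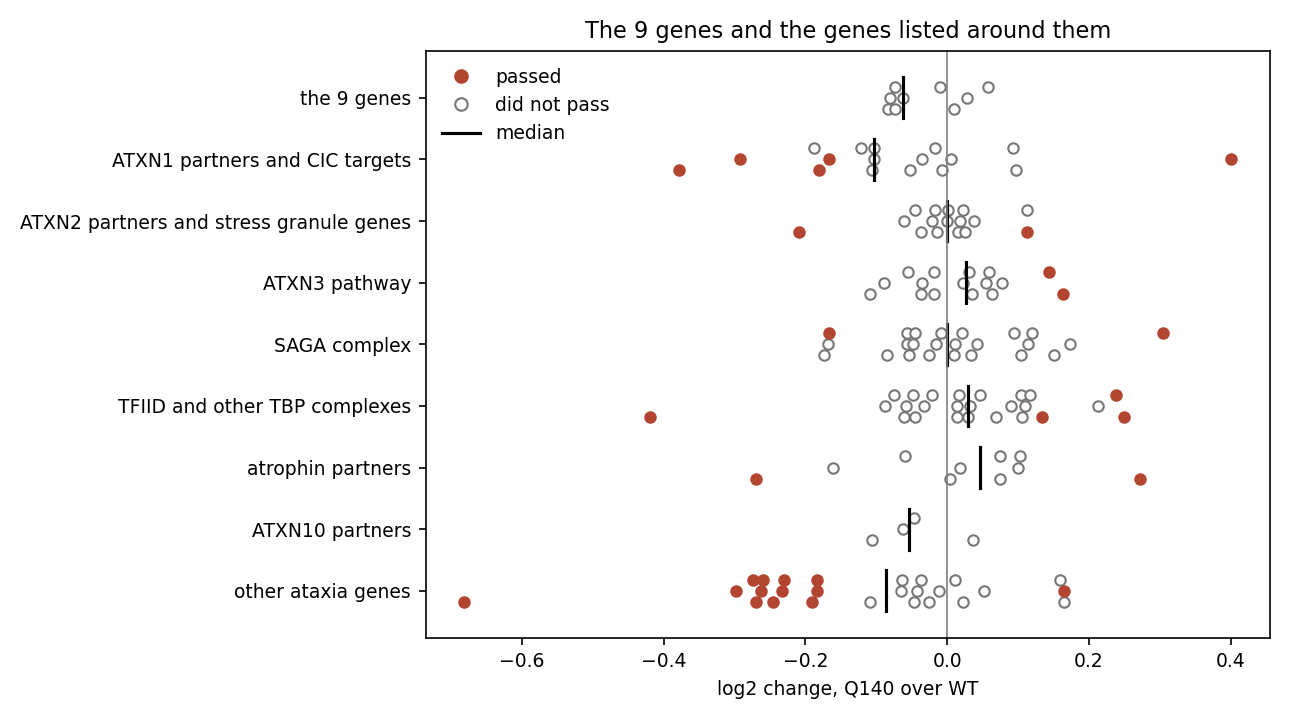
Log2 change, Q140 over WT, of the 9 genes (top row) and of the tested genes of the 8 lists around them; filled points passed at an adjusted p below 0.05, open points did not, and black bars are list medians. The 9 genes lie between -0.084 and 0.057 with no filled point, while 12 of 26 other ataxia genes are filled on the lower side. Of all genes tested, 6.69% passed on that side.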

How the data were processed

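RNA of the piriform cortex of 12 mice was sequenced from Illumina TruSeq stranded libraries, per the labels' protocols. Per the submitters' processing notes the tools were STAR 2.7.5c, SAMtools 1.10 and HTSeq 0.12.3, with builds GRCm38 and mm10; the annotation is not given in the sources used here. The deposited table of counts holds raw whole reads per gene, and the deposited FPKM values were made by the authors from these counts and the column totals. All value columns were used (0 unused).

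Genes were filtered by edgeR's default by genotype, scaled by TMM and tested with edgeR 4.0.16 in R 4.3.3 (quasi-likelihood, sex as covariate; for the sexes, a fit with 1 group per sex and genotype), two-sided, adjusted over 17725 genes. CPM values use TMM-scaled totals, and correlations log2 CPM with a prior count of 2. Ratios of FPKM used exact permutation (scipy 1.17.1). Fits were tested on simulated data. Alternatives changed the scaling, the filter, the covariates or the tool (limma 3.58.1, DESeq2 1.42.0), or left out 1 animal at a time. The members and lists were chosen with earlier results of these data known. The text names all 9 members, Htt, up to 4 genes of a list by smallest p among those that passed, or else the 1 with the smallest p, and the gene most correlated with each member; some of these are not reported here. Etv4, Etv5 and Cacna1a are named outside this rule, with their values known. The symbol Ufd1 is listed but not in the table, where Ufd1l is. Positions and sequences came from GENCODE M21.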

Additional observations from a re-analysis of the deposited data

Results flagged for a closer look

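In 24 groups of 6 animals (the 9 genes, the 2 ratios and Htt, in each genotype), 2 held an animal far from the others, and chance alone gives about 1 in 20 groups. Atxn10 in Q140 female 1 was 204 CPM, against 218 to 226 CPM in the other 5 Q140 animals. Htt in WT male 4 was 180 CPM, against 197 to 204 CPM in the other 5 WT animals, and still above the highest Q140 animal at 164 CPM.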

How the results depend on the processing

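The count of members that passed was 0 under every alternative run, 27 for genotype and 20 for each of the comparisons by sex, and without any 1 animal. The lowest adjusted p of a member was 0.0773 for genotype (Atxn2 without Q140 animal 5), 0.0825 in females, 0.103 in males, 0.403 for the difference between the sexes and 0.10004 for males against females. Atxn1l and Atn1, both near 0, changed sign. Atxn1l (-0.010) was 0.037 and 0.033 by limma on log2(FPKM + 0.1) and log2(FPKM + 1), 0.0042 with name prefix, 0.0084 with the replicate block described last, 0.010 with the meningeal marker mean and 0.037 with mitochondrial share as covariate, and from -0.032 to 0.014 without 1 animal. Atn1 (0.0094) was -0.0074 by limma voom and -0.024 with the oligodendrocyte marker mean, and from -0.031 to 0.045 without 1 animal. The other 7 kept their direction. The Atxn2 to Atxn2l difference ran from -0.034 to 0.041 without 1 animal, and the Atxn1 to Atxn1l difference from -0.0999 to -0.040. At the exonic lengths of GENCODE, 5 of the 9 genes kept their place by FPKM. Listed genes that passed numbered 30, but 0 with prefix, 3 with the oligodendrocyte mean, 12 with the meningeal mean and 11 with mitochondrial share as covariate, and 14 to 29 without 1 animal (17, 16, 14 and 16 without Q140 animal 1, Q140 animal 2, WT animal 1 and WT animal 3). Ataxia genes that fell numbered 0, 2, 4 and 4 with those covariates, 5 and 4 on log2(FPKM + 0.1) and log2(FPKM + 1), and 4 to 11 without 1 animal. ATXN1 partners and Capicua targets that passed numbered 0, 0, 2 and 2 with those covariates, 3 without sex, and 2 to 5 without 1 animal. The causes were not tested. The fits with total count, mitochondrial share and block, the GENCODE lengths, and all alternatives for the lists were chosen after seeing the data. Replicate numbers pair nothing, but the animal names hold a number of unstated meaning, and 2 such numbers occur in both genotypes (Q140 animal 4 with WT animal 3, and Q140 animals 3 and 5 with WT animal 4). Their deviations from the genotype means correlated at r = 0.035, 0.38 and 0.25 over genes. In pairs of a Q140 and a WT animal that share no number, r ran from -0.43 to 0.32. With the number as a replicate block, 0 of 9 members passed, with log2 changes from -0.13 in Atxn1 to 0.091 in Atn1. That fit draws the genotype effect only from the 5 animals named above. Of all 17725 genes 1 passed, and of the listed genes 0.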
